A study of Mus musculus with 21 samples.

Results

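Urokinase, its receptor, 2 clade B serpins and 3 genes of secreted or matrix-binding proteins were followed across 7 groups of mouse blood-forming and B cells. The 7 genes are Plau, Plaur, Serpinb2, Serpinb6b, Thbs1, F13a1 and Tgfbi, out of 20014 genes with a named probe on the array. They were chosen by name, with earlier results of all the comparisons below already known, and each was read from its brightest probe, by mean level over the 21 arrays. All 7 had a named probe, F13a1 had 2 and the others 1. The differences between groups are therefore descriptions of these genes. Their adjusted p-values, taken over all genes tested, place them among the other genes and are not independent support for the choice.

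Plau encodes urokinase, a secreted serine protease that turns plasminogen into plasmin, which digests fibrin and other matrix proteins. Plaur encodes the receptor that holds urokinase at the surface of myeloid cells. Serpinb2, also called plasminogen activator inhibitor type 2, blocks urokinase. Serpinb6b belongs to the same clade of mostly intracellular serine protease inhibitors. Thbs1 encodes thrombospondin 1, a matricellular glycoprotein of platelets and macrophages that binds CD36 and CD47 and can activate latent TGF-beta. F13a1 encodes the A chain of coagulation factor XIII, a transglutaminase that crosslinks fibrin. Tgfbi encodes a TGF-beta-induced matrix protein that binds integrins, and monocytes and macrophages make it.

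The study asked how the related repressors Bach1 and Bach2 act on lymphoid and myeloid genes. Common lymphoid progenitors (CLPs) were sorted from bone marrow of wild-type (WT) mice and of mice with compound Bach1 and Bach2 deficiency (DD), pooled from mice of 1 genotype per array. Multipotent progenitors (MPPs) of WT mice, pooled from 4 mice per experiment, were kept overnight with the cytokines SCF at 50 ng/ml, IL-6 at 10 ng/ml and IL-3 at 5 ng/ml. They were then infected with the retrovirus MSCV-GFP (control vector) or with one carrying Bach2 and GFP (Bach2 vector). After 2 days under multilineage conditions, the cells with GFP were sorted. Other Bach2-vector cells had 24 h of multilineage and then 6 days of B-lineage culture before a sort for GFP and B220; no B220+ control-vector group was analysed here. Follicular B cells of WT and Bach2KO mice were cultured for 24 h with 10 ug/ml of an anti-IgM antibody fragment. Each group had 3 arrays, and the sources used here give neither the sex nor the age of the mice. For follicular B cells the label mentions amplification of 1 RNA sample, so the p-values there measure the spread between arrays, which may be technical.

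A level here is the log2 of a probe's signal minus the log2 of the 75th percentile of its array, so that 0 is that percentile itself. That percentile was 2071 to 5127 intensity units on the CLP and MPP arrays and 97.3 to 357.5 on the follicular B-cell arrays, so a probe at background lies higher on this scale in follicular B cells. Levels are tested within an experiment only; where levels of different experiments stand side by side, their order is a reading on this scale and was not tested. Of the targeted genes, Bach2 was lower in the deficient cells. It was 3.37 ± 0.27 in WT and -0.39 ± 0.54 in Bach2KO follicular B cells (SD, n = 3 each). In CLPs it was 2.45 ± 0.98 in WT and 0.33 ± 0.75 in DD cells (SD, n = 3 each), and neither pair of groups overlapped. The Bach2 difference passed in follicular B cells (adjusted p = 9.20e-04, limma). In CLPs it did not pass, at -2.11 ± 0.58 (log2 difference ± SE, adjusted p = 0.999, limma). Bach1, also labelled as deficient in DD CLPs, did not follow the label. It lay at 1.87, 1.96 and 2.17 in WT and at 2.41, 1.14 and 0.88 in DD CLPs, all well above background, so DD replicate 1 was above every WT array. Its log2 difference was -0.52 ± 0.45 (SE; adjusted p = 0.999, limma). The sources used here do not say whether the Bach1 probe lies in the deleted part of the gene, so this reading does not check the label. Under the Bach2 vector the main Bach2 probe lay at -1.84 ± 0.84 against -2.99 ± 0.86 under the control vector (SD, n = 3 each), and the groups overlapped. The sources used here do not say whether that probe reads the vector's transcript. The B220+ cells carried little mRNA of some B-lineage genes: Pax5 was at -5.80 ± 0.23, against -4.94 ± 0.34 in control-vector MPPs (SD, n = 3 each). Ms4a1 was not well above background on any B220+ array, and Ebf1 was on 1 of 3. Others were brighter, with Cd79b at 3.63 ± 0.36 and Cd22 at 0.78 ± 0.34 in B220+ cells (SD, n = 3 each). Of 8 B-lineage markers measured, 4 had a higher and 4 a lower mean than in control-vector MPPs. Cd22 alone passed, higher in B220+ cells (adjusted p = 0.00958, limma). Of 8 lymphoid progenitor markers measured, 7 had a higher and 1 a lower mean than in control-vector MPPs. Dntt, Ly6d, Il7r and Flt3 passed in limma, all higher, by log2 differences of 7.13, 5.74, 4.99 and 2.01. Over all genes tested in that comparison, 4.65% were higher. In bulk samples, fewer cells of a type and less RNA per cell cannot be told apart.

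Promoter sequence is shown for Plaur, which fell under the Bach2 vector, and for Serpinb6b and Tgfbi, which moved apart there and together in follicular B cells. Bach proteins pair with small Maf proteins on elements built around the core TGACTCA. The stretches are the 150 bases before a RefSeq transcript start (GRCm38.p6), with matches to the searched motifs in capitals.
Plaur, chr7:24462333-24462482, plus strand: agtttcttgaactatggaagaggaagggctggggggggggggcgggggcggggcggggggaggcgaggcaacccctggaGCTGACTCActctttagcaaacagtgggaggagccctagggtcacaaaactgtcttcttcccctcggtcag
Serpinb6b, chr13:32965111-32965260, plus strand: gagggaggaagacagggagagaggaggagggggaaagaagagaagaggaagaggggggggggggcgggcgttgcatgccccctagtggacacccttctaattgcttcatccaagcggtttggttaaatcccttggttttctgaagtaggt
Tgfbi, chr13:56609436-56609585, plus strand: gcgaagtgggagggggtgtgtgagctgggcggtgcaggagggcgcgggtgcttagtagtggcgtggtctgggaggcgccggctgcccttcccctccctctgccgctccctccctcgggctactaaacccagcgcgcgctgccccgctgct
The motifs searched on both strands, over 250 bases before to 50 after each start, were TGACTCA, TGACGTCA and GCTGANTCA. In the Plaur window TGACTCA began at base -69 and lay inside a GCTGANTCA match that began at base -71. Windows were present for 5 of the 7 genes (Plaur, Serpinb2, Serpinb6b, F13a1 and Tgfbi), and only that of Plaur held a match to any of the 3 motifs. Among 32851 such windows of all genes, 5.20% held TGACTCA, 1.79% TGACGTCA and 1.19% GCTGANTCA. A match describes letters only, and binding was not measured here.

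**Figure D1:**
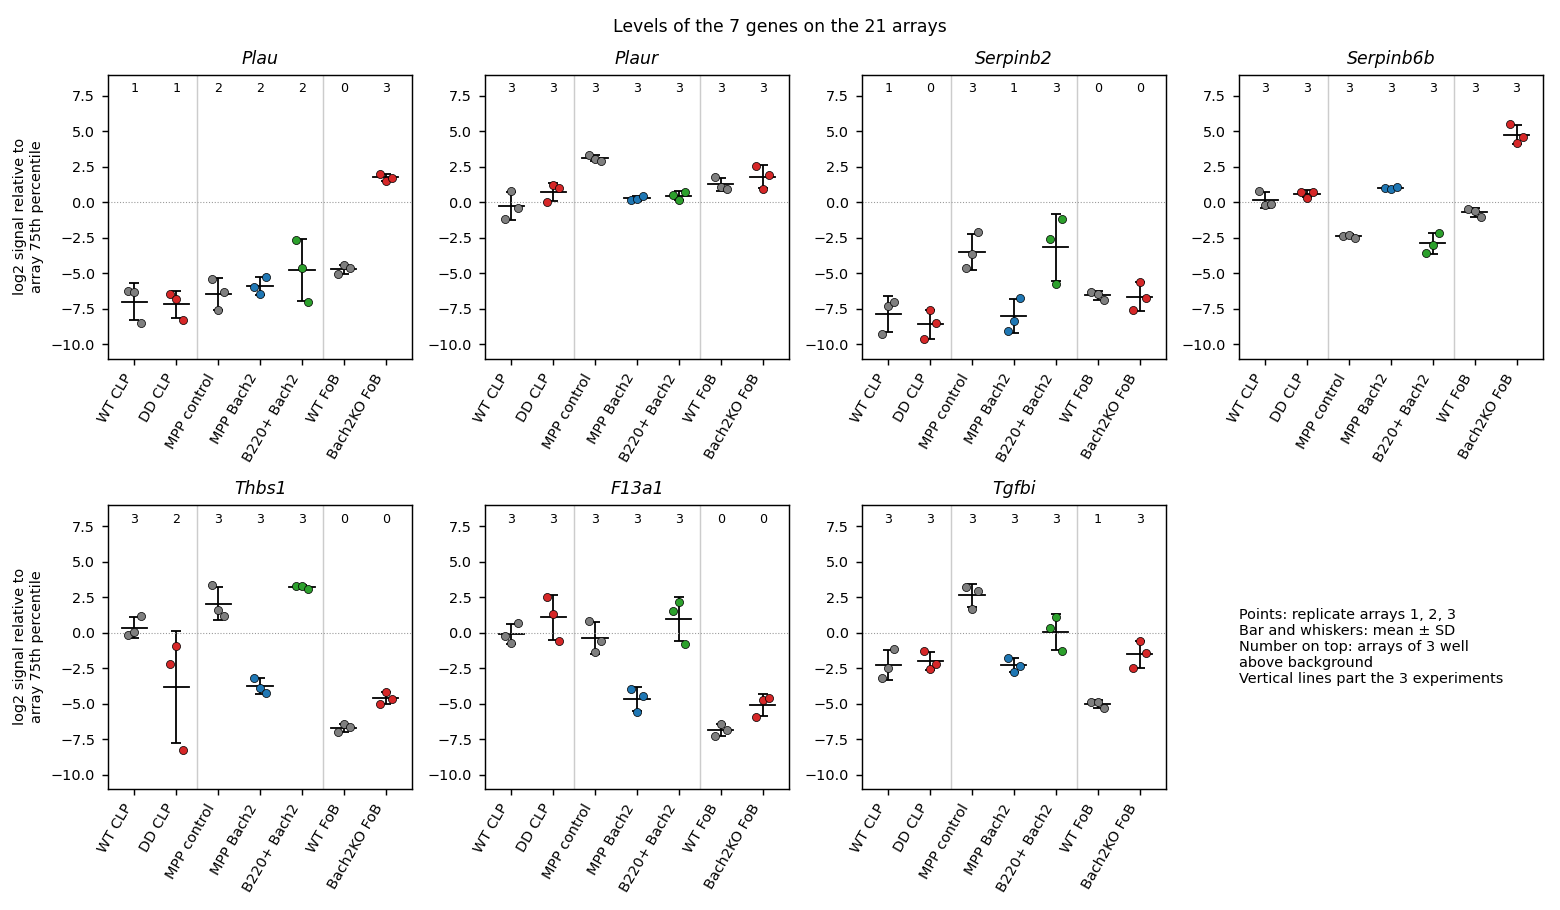
Level of each of the 7 genes on every array (vertical axis, log2 signal above or below the 75th percentile) in the 7 groups, with mean and SD bars and, on top, the number of 3 arrays well above background. Plau and Serpinb6b stand above WT in Bach2KO follicular B cells, while Thbs1, F13a1 and Tgfbi are lower in Bach2-vector than in control-vector MPPs.

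In MPPs, 4 of the 7 genes fell under the Bach2 vector, 1 rose and 2 did not pass the test, at an adjusted p under 0.05 (limma). Plaur, Thbs1, F13a1 and Tgfbi fell by 7.06-fold to 55.9-fold, and Serpinb6b rose 10.5-fold. Over all 16984 genes tested, 0.724% were lower and 1.07% higher by the same rule. The groups did not overlap for 6 of the 7 genes, against 14.9% of all genes tested. The median log2 difference was -4.30 over the 7 genes and -0.02 over all genes. Since the genes were chosen with this comparison known, nothing is read from those shares.

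Plaur was the steadiest of the genes that fell. Its level was 3.33, 3.06 and 2.92 on the control-vector arrays and 0.13, 0.26 and 0.44 on the Bach2-vector arrays. All control arrays lay above all Bach2-vector arrays, by more than the spread within either group. The log2 difference was -2.82 ± 0.25 (SE), with an adjusted p of 0.00132 in limma.

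The other genes that fell encode matrix-binding or crosslinking proteins. Thbs1 lay at 3.35, 1.63 and 1.14 under the control vector and at -3.16, -3.90 and -4.23 under the Bach2 vector. The groups were far apart, although the 3 control arrays spread over more than 2 log2 units. This made a log2 difference of -5.81 ± 0.53 (SE; adjusted p = 0.00148, limma), a 55.9-fold lower signal. Tgfbi lay at 3.24, 1.69 and 2.94 against -1.79, -2.74 and -2.34, with no overlap. Its log2 difference was -4.91 ± 0.63 (SE; adjusted p = 0.00678, limma), 30.1-fold lower.

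F13a1 was less secure. Its level was 0.85, -1.36 and -0.55 under the control vector and -3.94, -5.56 and -4.46 under the Bach2 vector, again without overlap. It differed on the log2 scale by -4.30 ± 0.83 (SE; adjusted p = 0.0378, limma), 19.7-fold lower. This call was lost when any control-vector or Bach2-vector array, or B220+ replicate 1, was left out, with adjusted p-values of up to 0.142. It was also lost with centring on the array median (adjusted p = 0.0630) and with the mean of both F13a1 probes (adjusted p = 0.109). The second F13a1 probe stood well above background on 0 of the 9 arrays.

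Among the inhibitors, Serpinb6b went the other way. It lay at -2.34, -2.26 and -2.53 under the control vector and at 1.04, 0.92 and 1.07 under the Bach2 vector. Both groups were tight and far apart, with a log2 difference of 3.39 ± 0.35 (SE; adjusted p = 0.00289, limma). Serpinb6b has close relatives, and a probe may bind their transcripts too: Serpinb6a differed by 0.16 ± 0.41 and Serpinb6c by 0.16 ± 0.41 (log2 difference ± SE), neither passing the test. Serpinb2 lay at -4.64, -3.65 and -2.11 under the control vector and at -9.05, -8.31 and -6.72 under the Bach2 vector, where 1 of 3 arrays was well above background. The groups did not overlap, but the log2 difference of -4.56 ± 1.15 (SE) did not pass, with an adjusted p of 0.114. It passed with the replicate number as a block (adjusted p = 0.0370), with the 2 groups fitted alone (adjusted p = 0.0378) and without B220+ replicate 2 (adjusted p = 0.0357). The protease itself, Plau, was dim in both groups, at -6.43 ± 1.11 and -5.89 ± 0.62 (SD, n = 3 each), with 2 of 3 arrays well above background in each.

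Each slide gave the same directions. Replicate 1 of both vectors lay on slide 1 and replicates 2 and 3 on slide 2. On slide 1 the log2 difference was -3.19 for Plaur, -6.52 for Thbs1, -4.79 for F13a1, -5.03 for Tgfbi and 3.39 for Serpinb6b. On slide 2 the values were -2.63, -5.45, -4.05, -4.86 and 3.39 in the same order. Every called gene kept its sign on both slides, and the calls held with slide as a block, with adjusted p-values of 5.88e-04 for Thbs1 to 0.0300 for F13a1.

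The summed levels of some marker lists differed too. The summed level of 10 platelet and megakaryocyte markers was 3.04 to 3.60 on the control-vector arrays and 1.05 to 1.42 on the Bach2-vector arrays. Its brightest marker, Pf4, went from 3.16 ± 0.29 to 0.74 ± 0.21 (SD, n = 3 each). Of 9 platelet markers measured, 4 had a higher and 5 a lower mean, with a median log2 difference of -0.06. Ppbp alone passed, lower under the Bach2 vector (adjusted p = 0.00112, limma). The summed level of 10 neutrophil markers was 8.12 to 8.29 against 7.74 to 8.10, also without overlap. That of 10 monocyte and macrophage markers, all detected in both groups, was 5.25 to 5.74 against 4.83 to 5.32, with overlap. For 8 mast cell and basophil markers it was 3.43 to 4.76 against 5.10 to 6.15. The part of such cells in the 5 gene changes was not tested.

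**Figure D2:**
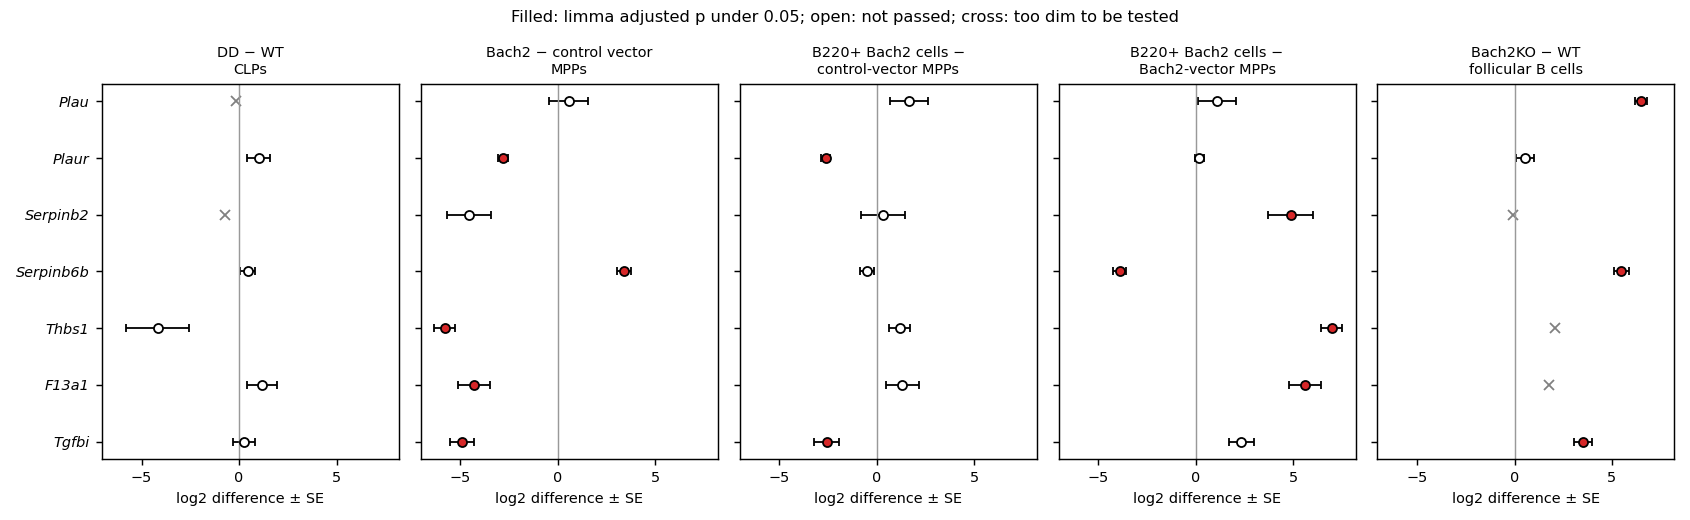
Log2 difference with its SE for each of the 7 genes in the 5 comparisons, first-named group minus second; filled points have an adjusted p under 0.05, open points do not, and crosses were too dim to be tested. Thbs1 stands at -5.81 between the vectors and at 6.98 between B220+ cells and Bach2-vector MPPs.

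B220+ Bach2-vector cells, which had longer and different culture, were set against both MPP groups. The 3 MPP comparisons share arrays, so their values are given side by side. Against control-vector MPPs, Plaur and Tgfbi were lower and the other 5 genes did not pass. In that comparison 7.45% of all genes tested were lower and 4.65% higher at an adjusted p under 0.05. The groups did not overlap for the same number of the 7 genes, and for 34.5% of all genes. The median log2 difference was 0.31 over the 7 genes and -0.29 over all genes tested.

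Plaur lay at 0.50, 0.15 and 0.76 in B220+ cells, close to Bach2-vector MPPs and below every control-vector array. Its log2 difference from control-vector MPPs was -2.63 ± 0.25 (SE; adjusted p = 4.00e-04, limma), and from Bach2-vector MPPs 0.19 ± 0.25 (SE; adjusted p = 0.659). Tgfbi lay at 0.33, 1.14 and -1.31, between both MPP groups. Its log2 difference from control-vector MPPs was -2.57 ± 0.63 (SE; adjusted p = 0.0314, limma) and from Bach2-vector MPPs 2.34 ± 0.63 (SE; adjusted p = 0.0645). The first of these calls was lost with centring on the array median (adjusted p = 0.0711), with the 2 groups fitted alone (adjusted p = 0.0639) and without control-vector replicate 1 or 3, Bach2-vector replicate 3 or B220+ replicate 1, with adjusted p-values of up to 0.102.

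Against Bach2-vector MPPs, Thbs1, F13a1 and Serpinb2 were higher in B220+ cells and Serpinb6b was lower. Over all genes tested, 2.01% were higher and 4.16% lower, and 29.2% had groups that did not overlap, against 5 of the 7 genes. The median log2 difference was 2.34 over the 7 genes and -0.25 over all genes.

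Thbs1 was at 3.26, 3.31 and 3.07 in B220+ cells, the tightest group for this gene. That is 126-fold above Bach2-vector MPPs, a log2 difference of 6.98 ± 0.53 (SE; adjusted p = 3.74e-04, limma). Against control-vector MPPs the difference was 1.17 ± 0.53 (SE; adjusted p = 0.177). F13a1 lay at 1.53, 2.15 and -0.80, with B220+ replicate 3 low but still above every Bach2-vector array. Its log2 difference from Bach2-vector MPPs was 5.62 ± 0.83 (SE; adjusted p = 0.00535, limma), 49.0-fold.

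Serpinb6b lay at -3.58, -2.97 and -2.12 in B220+ cells. It was thus near the control-vector level and 14.9-fold below Bach2-vector MPPs, a log2 difference of -3.90 ± 0.35 (SE; adjusted p = 5.26e-04, limma). Serpinb2 lay at -2.56, -5.76 and -1.14, a wide spread with all 3 arrays well above background. Its log2 difference from Bach2-vector MPPs was 4.87 ± 1.15 (SE; adjusted p = 0.0412, limma). That call was lost in 10 of 20 alternatives, among them normexp background correction (adjusted p = 0.0594, log2 difference 2.66), no filter on dim probes (adjusted p = 0.0512), the 2 groups fitted alone (adjusted p = 0.0669) and leaving out control-vector replicate 2, any Bach2-vector array or B220+ replicate 1 or 3, with adjusted p-values of up to 0.127. Plau lay at -2.68, -4.62 and -7.03 in B220+ cells, a wide spread, and passed against neither control-vector nor Bach2-vector MPPs (adjusted p = 0.285 and 0.506, limma). Without B220+ replicate 3 its log2 difference from control-vector MPPs went from 1.65 to 2.78 and passed (adjusted p = 0.0425), and without B220+ replicate 1 it was 0.60 (adjusted p = 0.670).

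All 3 B220+ arrays lay on slide 1, with 1 control-vector and 1 Bach2-vector array. Within slide 1 the log2 difference from the Bach2-vector array was 6.38 for Thbs1, 4.90 for F13a1, 5.89 for Serpinb2 and -3.93 for Serpinb6b. With slide as a block these were 6.02, 4.65, 5.97 and -3.94, with adjusted p-values of 4.10e-04, 0.0344, 0.0540 and 0.00444, so the call for Serpinb2 was lost. From the control-vector array of that slide, Plaur differed by -2.86 and Tgfbi by -3.19. With slide as a block they differed from control-vector MPPs by -2.67 and -3.13, with adjusted p-values of 0.00216 and 0.0416. Thbs1 differed from that control array by -0.14 within slide 1, against 1.17 over all arrays.

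Markers of other cells were present in the B220+ group. Of the 3 groups of that experiment the summed level of the platelet list was lowest there, at -0.29 to 0.03. Against control-vector MPPs, 4 of its 9 measured markers had a higher and 5 a lower mean. Pf4 and Ppbp passed as lower and Gp9 as higher (limma). All 10 monocyte and macrophage markers were detected, with a summed level of 5.62 to 6.11. The mast cell and basophil list was at 6.03 to 7.84 and the neutrophil list at 8.39 to 8.55, against 7.74 to 8.10 in Bach2-vector MPPs. Against Bach2-vector MPPs, all 9 measured neutrophil markers had a higher mean, and Camp and Ngp passed in limma (log2 differences 5.90 and 6.28). Ngp was well above background on 1 Bach2-vector array only. Of 8 mast cell and basophil markers, 6 had a higher and 2 a lower mean, and Prss34 (6.63) and Hdc (1.44) passed. Of 10 monocyte and macrophage markers, 7 had a higher and 3 a lower mean, and Csf1r and Ms4a6c passed, both higher. Over all genes, 2.01% were higher. The part of myeloid cells in the levels of Thbs1, F13a1 and Serpinb2 was not tested.

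**Figure D3:**
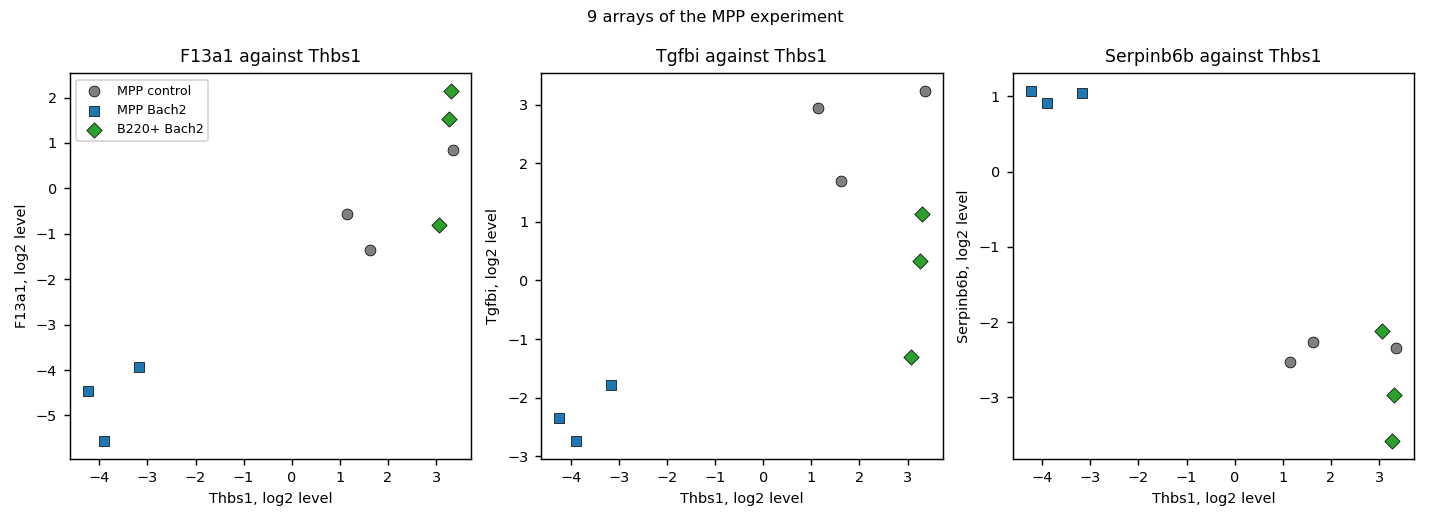
F13a1, Tgfbi and Serpinb6b (vertical axes) against Thbs1 (horizontal axis), as log2 levels on the 9 arrays of the MPP experiment, with group by colour and shape. Bach2-vector MPPs lie apart, with Thbs1 between -4.23 and -3.16, low F13a1 and Tgfbi, and Serpinb6b near 1; control-vector and B220+ arrays share the range of Serpinb6b from -3.58 to -2.12.

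In Bach2KO follicular B cells, Plau, Serpinb6b and Tgfbi were higher than in WT. Of the 7 genes, 4 were bright enough to be tested; 3 passed, all higher, and Plaur did not pass. Over the 13064 genes tested, 2.20% were higher at an adjusted p under 0.05 and 18.7% had groups that did not overlap. Plau passed the filter on dim probes only through the Bach2KO arrays, so it had to differ, and Tgfbi was well above background on 1 WT array only; the count is therefore not set against those shares. With the replicate number as a block, 2976 genes passed in place of 353, and the same 3 of the 7 genes did.

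Plau, urokinase itself, was not well above background on any WT array, at -5.07, -4.42 and -4.64. On the Bach2KO arrays it lay at 2.03, 1.53 and 1.75. The signal was at least 83.9-fold higher in Bach2KO cells, counted against the lowest signal that lay well above background on the WT arrays or the probe's own, whichever was higher. The measured log2 difference was 6.48 ± 0.32 (SE; adjusted p = 6.74e-05, limma). With normexp background correction it shrank to 3.37 (adjusted p = 7.08e-04).

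Plaur, its receptor, was measured on all 6 arrays and overlapped between the groups. It lay at 1.81, 1.11 and 0.94 in WT and at 2.57, 0.97 and 1.91 in Bach2KO cells. Its log2 difference was 0.53 ± 0.45 (SE; adjusted p = 0.718, limma).

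Serpinb6b lay at -0.49, -0.60 and -1.04 in WT and at 5.54, 4.16 and 4.63 in Bach2KO cells. The groups were separated by more than 4 log2 units. The log2 difference was 5.49 ± 0.40 (SE; adjusted p = 3.51e-04, limma), 44.9-fold. Its relatives Serpinb6a and Serpinb6c differed by 0.10 ± 0.32 and 0.19 ± 0.30 (log2 difference ± SE), neither passing. Serpinb6b was thus higher both where the Bach2 vector was added in MPPs and where Bach2 was absent in follicular B cells; the difference between these contrasts was not tested.

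Tgfbi lay at -4.86, -4.85 and -5.33 in WT, where 1 of 3 arrays was well above background, and at -2.50, -0.61 and -1.41 in Bach2KO cells. The groups did not overlap, and the log2 difference was 3.50 ± 0.47 (SE; adjusted p = 0.00537, limma), 11.3-fold. The call ended under normexp background correction, where the log2 difference was 1.08 (adjusted p = 0.381).

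Serpinb2, Thbs1 and F13a1 were not well above background on any of the 6 follicular B-cell arrays and were not tested. Thbs1 read -6.69 ± 0.29 in WT and -4.63 ± 0.42 in Bach2KO cells, and F13a1 -6.86 ± 0.42 and -5.08 ± 0.75 (SD, n = 3 each). The readings did not overlap, yet all lay in the range of background, so no fold is given. Serpinb2 read -6.55 ± 0.32 and -6.64 ± 1.02 (SD, n = 3 each).

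Each slide gave the same signs. On slide 1, with 1 array per genotype, the log2 difference was 7.10 for Plau, 6.03 for Serpinb6b and 2.36 for Tgfbi. On slide 2, with 2 arrays each, it was 6.17, 5.22 and 4.08. With slide as a block the adjusted p-values were 1.02e-05, 1.14e-05 and 7.73e-04. Monocyte and macrophage markers gave a summed level of 5.04 to 5.35 in WT, with 7 of 10 detected, and of 4.62 to 5.91 in Bach2KO cells, with 8 of 10 detected. Ccr2 was at background on all 6 arrays. Lyz2 went from -4.27 ± 0.99 to -1.47 ± 1.13, Cx3cr1 from -5.40 ± 1.26 to -2.97 ± 0.91 and Cd14 from -4.18 ± 0.38 to -2.61 ± 0.51 (SD, n = 3 each), without overlap. Mpeg1 went the other way, also without overlap, from 2.81 ± 0.48 to 1.35 ± 0.43 (SD, n = 3 each). Of the 8 measured monocyte markers, 6 had a higher and 2 a lower mean in Bach2KO cells, and 0 passed in limma.

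Markers of other blood cells moved as well. Of 8 measured neutrophil markers, 7 had a higher mean in Bach2KO cells, with a median log2 difference of 2.93 over the 8, but 0 passed in limma. Among them S100a9 went from 0.97 ± 2.04 to 4.20 ± 1.24 and Ngp from -3.94 ± 1.96 to -0.68 ± 1.40 (SD, n = 3 each), without overlap, and S100a8 from -0.68 ± 2.02 to 2.37 ± 1.55 with overlap. The summed neutrophil level was 6.06 to 7.69 in WT and 6.99 to 8.18 in Bach2KO cells. Of 4 measured erythroid markers, Hba-a1 (alpha globin) and Alas2 (heme synthesis) passed, both higher in Bach2KO cells, beside 2.20% of all genes higher. Their log2 differences were 3.74 ± 0.77 and 3.93 ± 0.66 (SE, adjusted p = 0.0395 and 0.0154, limma). Alas2 was well above background on 1 WT array only. The summed erythroid level was 2.98 to 3.24 in WT and 2.88 to 4.74 in Bach2KO cells. Among platelet markers Pf4 went from -6.18 ± 0.77, not well above background, to -2.60 ± 0.94 (SD, n = 3 each), while 6 of the 10 were not detected in Bach2KO cells. The part of admixed cells in the levels of Plau, Serpinb6b and Tgfbi was not tested.

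In CLPs none of the 5 genes tested passed (0 higher and 0 lower), and 1 gene of the 7, Thbs1, had an unadjusted p under 0.05 in limma. Over all 16452 genes, 0.00608% passed in either direction and 620 had an unadjusted p under 0.05. The median log2 difference was 0.45 over the 5 genes and 0.04 over all genes. The groups did not overlap for 1 of the 5 genes and for 7.91% of all genes.

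That gene was Thbs1, at -0.20, 0.04 and 1.20 in WT and -2.20, -0.97 and -8.29 in DD CLPs. DD replicate 3 was not well above background and lay far below the other arrays. Between the means the log2 difference was -4.17 ± 1.62 (SE; adjusted p = 0.999, limma), and -1.93 without DD replicate 3. On the slides of replicates 1, 2 and 3 it was -2.01, -1.01 and -9.49. The platelet list ranged from 0.21 to 0.49 in WT and from 0.20 to 3.15 in DD CLPs.

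F13a1 lay at -0.24, -0.70 and 0.69 in WT and at 2.53, 1.34 and -0.59 in DD CLPs, with overlap through DD replicate 3. Plaur lay at -1.18, 0.83 and -0.42 in WT and at 0.02, 1.20 and 1.00 in DD CLPs. The log2 difference was 1.18 ± 0.75 for F13a1 and 1.00 ± 0.57 for Plaur (SE; adjusted p = 0.999 for both, limma). Serpinb6b differed by 0.45 ± 0.39 and Tgfbi by 0.26 ± 0.57 (log2 difference ± SE). Plau was well above background on 1 of 3 arrays in each group, and Serpinb2 on 1 WT array and 0 DD arrays, so neither was tested.

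Set side by side over the 7 groups, the readings of each gene had their own order, untested where groups come from different experiments. Plau read highest in Bach2KO follicular B cells (mean 1.77 ± 0.25; SD, n = 3 here and in the next values), and the other group means lay between -7.17 and -4.71. Plaur read highest in control-vector MPPs (2.92 to 3.33). Tgfbi also read highest there (2.62 ± 0.82), followed by B220+ cells (0.05 ± 1.25).

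Thbs1 read highest in B220+ cells (3.21 ± 0.13) and control-vector MPPs (2.04 ± 1.16), which overlapped. F13a1 read highest in DD CLPs (1.09 ± 1.57) and B220+ cells (0.96 ± 1.56), of 2 experiments, which overlapped and changed places when arrays were centred on the median. Serpinb2 read highest in B220+ cells (-3.15 ± 2.37) and control-vector MPPs (-3.47 ± 1.28), which overlapped. Serpinb6b read highest in Bach2KO follicular B cells (4.78 ± 0.70), followed by Bach2-vector MPPs (1.01 ± 0.08).

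Genes with the most similar pattern were sought by Pearson's r over the 9 MPP-experiment arrays, among 16170 genes; the arrays fall into 3 groups, so r mostly reflects group differences. Thbs1 was most like Rab7b (r = 0.97), Anxa1 (0.96) and its fellow gene F13a1 (0.95), with r over all 21 arrays of 0.61, 0.71 and 0.75. F13a1 in turn was most like Thbs1, followed by Klra2 and Pkd2 (r = 0.93 each; 0.40 and 0.82 over 21 arrays). Plaur was most like Retnlb (0.99), Mcf2l (0.98) and Dnmt3l (0.98), of which Dnmt3l alone was alike over 21 arrays (0.78; 0.24 and 0.01 for the others). Tgfbi was like Ptgr1 (0.98) and Cldn15 (0.96), with 0.64 and 0.70 over 21 arrays.

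Serpinb6b was most like Ccdc102a (0.97), Zscan21 (0.97) and Apol10b (0.97), and over 21 arrays r was -0.19, 0.14 and 0.08. Serpinb2 was most like Mir22hg (0.89), Slco1b2 (0.88) and Chil4 (0.88), with 0.02, 0.55 and 0.78 over 21 arrays. Plau, dim in that experiment, was most like Cyp27a1, Zkscan8 and Rnase9 (0.93 each), and r over 21 arrays was 0.09, -0.16 and -0.11.

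Other genes of the same systems were taken from fixed lists that leave out the 7 genes. Of 12 plasminogen-system genes, Serpine2, protease nexin 1, was higher in B220+ cells than in control-vector MPPs, with a log2 difference of 1.78 ± 0.29 (SE; adjusted p = 0.00516, limma). In follicular B cells none of 5 measured genes passed (limma), with Anxa2, a plasminogen-binding annexin, nearest at 1.23 ± 0.30 (log2 difference ± SE; adjusted p = 0.0752).

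Of the 16 other clade B serpins, none of 13 measured passed between the vectors (limma), with Serpinb10 having the smallest p (adjusted p = 0.290). In follicular B cells Serpinb9 and Serpinb1b were higher in Bach2KO cells, among 8 measured; Serpinb1b passed the filter on dim probes only through the Bach2KO arrays, so it had to differ, and the count is not set against the 2.20% of all genes. Serpinb9, the granzyme B inhibitor, differed by 3.83 ± 0.34 (log2 difference ± SE; adjusted p = 7.55e-04, limma), and Serpinb1b, not well above background in WT, was at least 3.64-fold higher. In B220+ cells against Bach2-vector MPPs, Serpinb1b and Serpinb9 were lower and Serpinb10 higher. Thus 3 of 13 passed, beside 2.01% of all genes higher and 4.16% lower. Serpinb10 was not well above background on any Bach2-vector array and was at least 4.82-fold higher in B220+ cells. Serpinb1b was not well above background on any B220+ array and was at least 2.09-fold lower there. Against control-vector MPPs, 2 of 13 passed in B220+ cells, Serpinb1b (at least 1.14-fold) and Serpinb11, both lower, beside 7.45% of all genes. The list's median log2 difference was 0.16 between the vectors and 0.48 in follicular B cells, beside -0.02 and -0.16 over all genes.

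**Figure D4:**
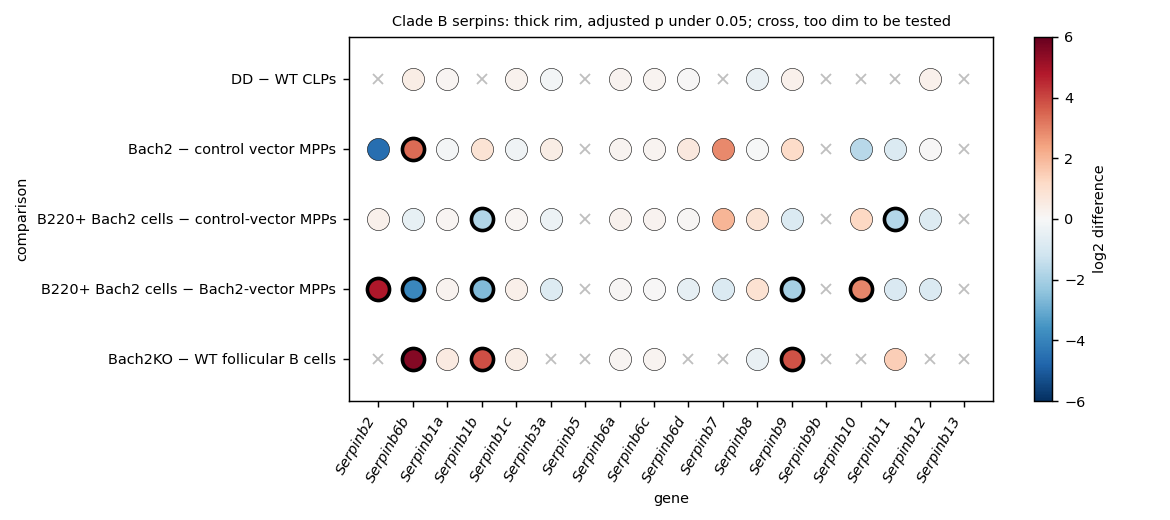
Log2 difference (colour) of Serpinb2, Serpinb6b and the 16 other clade B serpins (horizontal axis) in the 5 comparisons (vertical axis); a thick rim marks an adjusted p under 0.05 and a cross a gene too dim to be tested. Serpinb6b, Serpinb1b and Serpinb9 are the 3 serpins that passed in follicular B cells, all higher in Bach2KO cells.

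Of 16 matricellular and matrix genes, 14 were measured in MPPs and Spp1, osteopontin, passed alone between the vectors, with a log2 difference of 1.21 ± 0.23 (SE, adjusted p = 0.0387, limma). Over all genes tested there, 1.07% were higher. In B220+ cells Fn1 (fibronectin), Ccn2 (connective tissue growth factor) and Spp1 were higher than in control-vector MPPs, by log2 differences of 5.12, 3.34 and 2.24. They were also higher than in Bach2-vector MPPs, by 4.33, 3.21 and 1.03. In each comparison 3 of 14 measured passed, all higher, beside 4.65% and 2.01% of all genes higher. Spp1 was the 1 of 6 measured that passed in follicular B cells, beside 2.20% of all genes higher. It was higher in Bach2KO cells by 3.37 ± 0.59 (log2 difference ± SE, adjusted p = 0.0176, limma). The list's median log2 difference was -0.22 between the vectors.

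Receptors that bind these proteins were tested as a list of 12. None passed between the vectors (limma), with the integrin gene Itgb5 nearest (log2 difference -2.73; adjusted p = 0.0782). In follicular B cells 3 of 11 measured passed, all higher in Bach2KO cells, beside 2.20% of all genes higher. They were the thrombospondin receptor Cd36 (log2 difference 4.17 ± 0.28, SE, adjusted p = 1.97e-04, limma) and the integrin genes Itga5 (1.56) and Itgav (1.37). Itga5 was well above background on 1 WT array only. Against control-vector MPPs, B220+ cells had higher Sdc1, Itgb2 and Sdc4 and lower Itgb5, of 12 measured. Over all genes, 4.65% were higher and 7.45% lower there. Sdc4 was well above background on 1 control-vector array only. Against Bach2-vector MPPs, Sdc1 and Itgb2 were higher in B220+ cells, beside 2.01% of all genes higher.

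Of 14 transglutaminase and coagulation genes, 13 were measured in MPPs. Between the vectors, F7 and F5, coagulation factors, fell (log2 differences -3.11 and -2.40, adjusted p = 0.00289 and 0.0472, limma). Tgm2, tissue transglutaminase, rose (3.37 ± 0.44, SE, adjusted p = 0.00686, limma). Over all genes tested there, 0.724% were lower and 1.07% higher. F13a1 and Tgm2, both transglutaminases, thus had opposite signs. Tgm2 stayed high in B220+ cells, at 2.16 ± 0.77 against -1.37 ± 0.40 in control-vector MPPs (SD, n = 3 each). Of the same list, 2 genes were higher and 4 lower in B220+ cells than in control-vector MPPs, with Tgm2 and F2 higher and F7 and Procr among the lower, beside 4.65% of all genes higher and 7.45% lower. F2 was not well above background on any MPP array, so it entered the test only through the B220+ arrays. Against Bach2-vector MPPs, F2 was higher and Tgm1 lower. In follicular B cells the thrombin receptor gene F2r was at least 3.46-fold higher in Bach2KO cells; it was not well above background on any WT array and entered the test only through the Bach2KO arrays, so its pass among 5 measured genes is no count to read.

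Of 14 TGF-beta pathway genes, the receptor gene Tgfbr2 rose between the vectors (log2 difference 2.02 ± 0.26, SE, adjusted p = 0.00715, limma) and the other 12 measured did not pass. Over all genes, 1.07% were higher between the vectors. Tgfbi, named for its induction by TGF-beta, fell in the same arrays. The ligand gene Tgfb3 and the latency protein gene Ltbp3 were lower in B220+ cells than in either MPP group, and Tgfbr2 was higher than in control-vector MPPs (log2 difference 1.05). In follicular B cells the other receptor gene, Tgfbr1, was 1 of 10 measured that passed, beside 2.20% of all genes higher. Its log2 difference was 2.45 ± 0.40 (SE, adjusted p = 0.0132, limma), with a higher level in Bach2KO cells.

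Of 13 metalloproteases and inhibitors, 3 of 12 measured fell under the Bach2 vector, beside 0.724% of all genes. They were Mmp8, neutrophil collagenase (log2 difference -6.09 ± 0.61, SE; adjusted p = 0.00241, limma), Adam8 (-3.72) and Mmp19 (-2.61), and the list's median was -0.82 beside -0.02 over all genes. Mmp8, Adam8 and Mmp19 were also lower in B220+ cells than in control-vector MPPs, unlike Thbs1 and F13a1, and Adamts1 was at least 6.89-fold lower. Timp3, a metalloprotease inhibitor, was lower in B220+ cells than in Bach2-vector MPPs, as were Adamts1 and Mmp25. In Bach2KO follicular B cells Timp2 (3.03) and Mmp14 (2.15, log2 differences) were higher, among 4 measured, beside 2.20% of all genes higher. Mmp14 was well above background on 1 WT array only.

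In CLPs none of the 76 measured entries of these 7 lists passed (limma). The gene nearest to passing was Adam8, at 0.71 ± 0.77 in DD and -1.76 ± 0.51 in WT CLPs (SD, n = 3 each; adjusted p = 0.593, limma). The smallest p of each other list fell on Plgrkt, Serpinb8, Postn, Sdc1, F5 and Tgfb2, all with an adjusted p of 0.999.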

How the data were processed

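The 7 genes and the gene lists were chosen with earlier results of these data known. Per the file headers, the authors' deposited values are Feature Extraction 10.7.3.1 processed spot intensity values, already background-corrected; the submitters' processing notes name version 9.1. Per the labels' protocols, RNA of follicular B cells was amplified linearly and that of CLPs and MPPs in 2 rounds. Each intensity was put on the log2 scale, and the 75th percentile of its array (control spots left out) was subtracted. Outlier spots were left out. Deposited flags that mark a spot as well above background (coded as other than a measurement) served as the detection call. Probes were named through RefSeq (GRCm38.p6): 26407 of 55681 matched, to 20014 genes. The array design's build differs, so no array coordinates are given.

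Genes detected by that flag on 3 or more arrays of an experiment were tested with limma 3.58.1 (lmFit, eBayes; R 4.3.3), with Benjamini-Hochberg adjustment over all genes and a threshold of 0.05. The 9 MPP arrays shared 1 estimate of spread. Listed genes are named where they passed (up to 4 with the smallest p per list and comparison), or else the 1 with the smallest p. Some others are named as relatives of Serpinb6b. A few genes that this rule covers are not reported here. Summed marker levels are the log2 of summed linear levels. The scripts were tested on simulated data. Normexp (offset 50) used the median spot signal in place of the mean signal first planned, which the files used here do not hold. Same-numbered arrays deviated together in CLPs (r of 0.43, 0.39 and 0.22), between vectors (0.65, 0.41 and 0.30) and in follicular B cells (0.86, 0.72 and 0.54). The main tests did not use this pairing. The replicate number entered as a block only among the alternatives. The labels tie the CLP numbers to mice of both genotypes.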

Additional observations from a re-analysis of the deposited data

How the results depend on the processing

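Of 342 alternative values for 30 gene-and-comparison results, leave-outs aside, 329 kept direction and side of the threshold, 9 lost a call, 4 gained one and 0 reversed. The alternatives were normexp, quantile and median scaling, other filters, outlier spots kept, a variance trend, the mean of probes, blocks, the deposited value table and pairs of groups alone. Against control-vector MPPs, the count of genes passing in B220+ cells moved from 2 to 1 with median centring and with only those groups fitted, and was 1 to 4 over leave-outs. In follicular B cells it moved from 3 to 1 when genes had to be above background on all arrays, which leaves 2 tested. Leaving out any Bach2KO array took Plau below the filter. Over leave-outs the counts were 4 to 6 between the vectors, 3 to 4 against Bach2-vector MPPs, 2 to 3 in follicular B cells and 0 in CLPs.

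Signs turned only for uncalled log2 differences when an array was left out: Tgfbi in CLPs (-0.18 to 0.82), Plau between the vectors (-0.039 to 1.07) and Serpinb2 between B220+ cells and control-vector MPPs (-0.69 to 1.62). The causes were not tested. The replicate block changed the call for Serpinb2 between the vectors (log2 difference -4.56, adjusted p = 0.0370) and no other. Genes called in the whole table went from 353 to 2976 with it in follicular B cells and from 1 to 0 in CLPs. B220+ numbers did not pair with control-vector numbers (r from -0.06 to 0.13) or with Bach2-vector numbers (0.08 to 0.12, though there each array correlated best with its own number, a hint from the data only); with the block 2587 genes passed in place of 2056 and 1387 in place of 1047. Centring on the median gave 210 genes between the vectors in place of 305 and 142 in follicular B cells in place of 353; normexp gave 123 in follicular B cells. The gene's highest group changed for F13a1 with median centring or the mean of probes and for Serpinb2 with normexp, leaving 6 of 7 in each case. Probes near background, Plau outside Bach2KO cells and Serpinb2 outside control-vector and B220+ cells, limit what these arrays show.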
